A study of Mus musculus with 10 samples.

Results

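Macrophages of the cochlea were followed through 10 genes that mark them: Csf1r, Adgre1, Cx3cr1, Cd68, Mrc1, Cd163, Lyve1, Trem2, Tyrobp and Aif1. They were taken by symbol from the 54532 genes of the count files, and the choice was made with earlier results of these data known. Macrophages are phagocytes that live in most tissues and depend on signals through the receptor encoded by Csf1r. In the cochlea they are known from the spiral ligament, the stria vascularis and the spiral ganglion, where they clear debris and contact vessels and nerve fibres. Bone and bone marrow beside the inner ear hold related myeloid cells such as osteoclasts, monocytes and neutrophil precursors.

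The samples are whole cochlea of 12-month-old mtKeima mice, sequenced as poly(A) RNA with 1 library per mouse, in 5 NR-treated and 5 non-treated mice. NR (nicotinamide riboside, a precursor of NAD+) was given at 7 mg/ml (24 mM) in drinking water from 2 to 12 months of age (10 months), and non-treated mice drank regular water. Mice of both groups carry the mtKeima transgene, a mitochondrial fluorescent reporter, on a mixed genetic background, and the strain was genotyped by the authors as wild type for Cdh23 and Nnt. The purpose of the RNA-seq was to compare the transcriptome of the cochlea with and without long-term NR.

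The labels call every mouse female, whereas the methods describe male mice for the cochlear RNA. The Y-linked genes Ddx3y, Eif2s3y, Kdm5d and Uty were expressed in all 10 mice (summed level 179 to 210 CPM, the count per 1000000 reads counted on genes, after TMM scaling) and Xist was at or below 0.405 CPM, so all 10 libraries go against the label. Total counts lay between 17060379 and 24419230 per mouse, and the 10 macrophage genes had 50 to 3129 reads each per mouse. Non-treated mouse 2 stood apart, with Lyz2 at 5740 CPM against 391 to 661 CPM and Ltf, lactoferrin, at 2488 CPM against 241 to 523 CPM in the other non-treated mice, and it differed more from each other library (chi-square per degree of freedom 72.8 to 118) than any 2 of the others did (10.9 to 55.5). Cochlear genes were present in every library: summed levels were 115 to 362 CPM for 7 hair cell genes and 4156 to 8273 CPM for 10 genes of supporting cells, tectorial membrane, stria and fibrocytes.

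All 10 macrophage genes were detected in every mouse and passed the filter on low counts, and none differed between NR-treated and non-treated mice beyond the spread between mice. The fold change was above 0 for 10 of 10 genes, against 47.1% of the 18329 genes tested, with a median log2 fold change of 0.25 against -0.01 over all tested genes. The quasi-likelihood test of edgeR called 0 of the 10 macrophage genes at the 0.05 level without adjustment, where 4.83% of all tested genes were called higher (886 genes) and 4.88% lower (894 genes). DESeq2 called 0 of the 10 at the same threshold, with 6.58% of genes called in either direction. After Benjamini-Hochberg adjustment edgeR called 0 genes of the whole table (0%). DESeq2 called 102 of the 19633 genes to which it gave an adjusted p, none of them among these 10. In these genes the NR-treated mice spread more than the non-treated, with 2 NR mice at the extremes, and the difference in spread was not tested. NR mouse 1 was the highest of the 10 mice in 9 of the 10 genes (12.4% of all tested genes) and NR mouse 2 the lowest in 7 of them (10.7%). In whole-tissue RNA, fewer macrophages and less RNA per macrophage cannot be told apart.

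**Figure D1:**
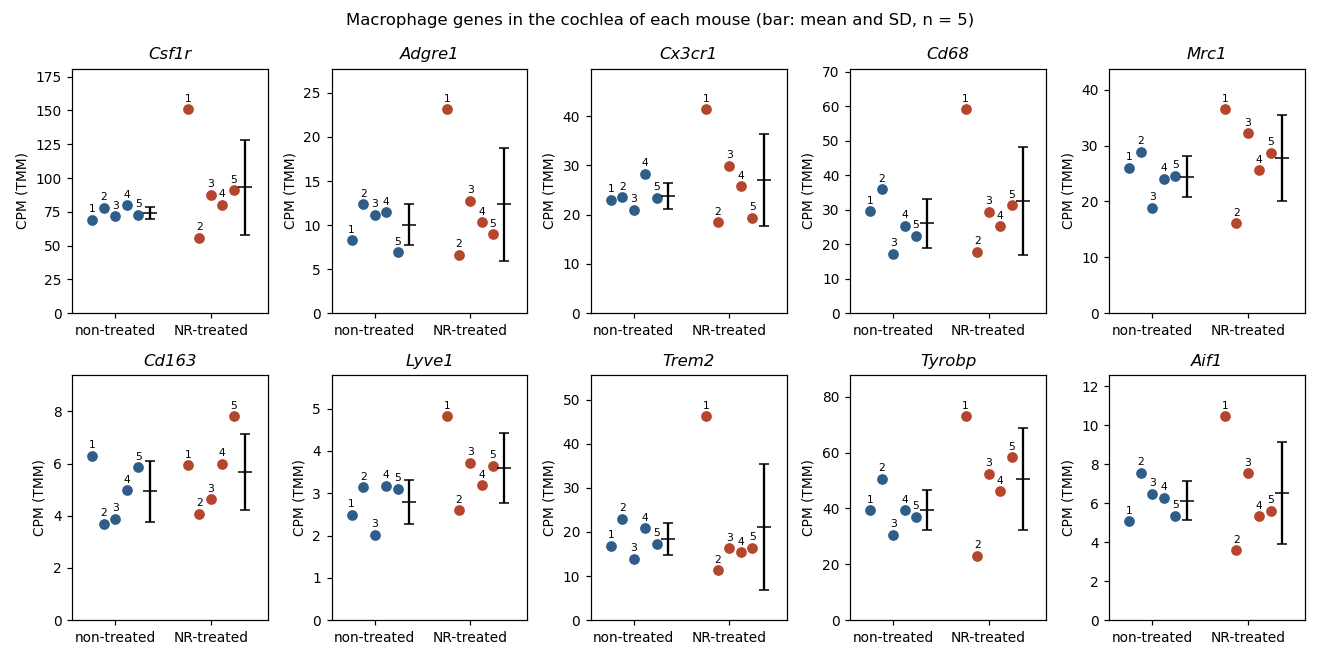
CPM (TMM-scaled, linear axis from 0) of the 10 macrophage genes in each mouse, non-treated in blue and NR-treated in red, with mouse numbers above the points and the mean and SD (n = 5) as black bars. NR mouse 1 is the highest point in every panel but Cd163, and in no panel are the groups separated.

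Levels of different genes were compared per kilobase of gene length, using the lengths in the count files. For Trem2 and Aif1 these equal all exon bases of the gene in GENCODE vM21 (4946 and 1532). The transcripts expressed may be shorter, and their lengths were not measured. The order below, with Trem2 and Aif1 in a middle group, therefore holds for these lengths only. In non-treated mice, Tyrobp was the most abundant at 59.0 ± 10.8 CPM per kb (SD, n = 5), followed by Cd68 at 20.8 ± 5.64, Csf1r at 15.2 ± 0.921 and Cx3cr1 at 5.28 ± 0.595. Aif1 (4.005 ± 0.644), Mrc1 (3.84 ± 0.576), Trem2 (3.72 ± 0.721) and Adgre1 (3.10 ± 0.713) formed a middle group, with Lyve1 (0.955 ± 0.176) and Cd163 (0.905 ± 0.213) lowest. Compared within each mouse, Tyrobp exceeded Cd68, Csf1r exceeded Cx3cr1, Cx3cr1 exceeded Aif1 and Adgre1 exceeded Lyve1 in 10 of 10 mice. Cd68 exceeded Csf1r in 9. Over all mice, the ranges of Csf1r (lowest 11.39) and Cx3cr1 (highest 9.178) were apart, as were those of Adgre1 (lowest 2.045) and Lyve1 (highest 1.651). The ranges of Tyrobp (lowest 34.54) and Cd68 (highest 47.04) overlapped, as did those of Cx3cr1 (lowest 4.092) and Aif1 (highest 6.826). Neighbours within the middle group were not ordered in this way. Aif1 was above Mrc1 in 4 of 10 mice, Mrc1 above Trem2 in 7 and Trem2 above Adgre1 in 7, and Lyve1 was above Cd163 in 5 of 10.

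Csf1r encodes the receptor for CSF1 and IL-34 that macrophages need to survive (ENSMUSG00000024621, mm10 chromosome 18, 61105572 to 61132149, plus strand). It stood at 151, 55.7, 87.8, 80.3 and 91.0 CPM in NR mice 1 to 5 and at 68.9, 77.8, 71.8, 79.9 and 73.0 CPM in non-treated mice 1 to 5. The values of 4 NR-treated mice exceeded those of the whole non-treated group and NR mouse 2 lay below all of them. The means were 93.1 ± 35.1 and 74.3 ± 4.501 CPM (SD, n = 5), with a log2 fold change of 0.33 (SE 0.21, edgeR adjusted p = 0.631) that was 0.0904 (SE 0.13) without NR mouse 1. Of the 10 genes, Csf1r varied least among non-treated mice, with a coefficient of variation of 6.06% against 37.7% in NR-treated mice. In GENCODE vM21, 15.1% of the exon bases of Csf1r are shared with Hmgxb3 (873 of 5774). The counting used no strand, and whether reads there entered the count of Csf1r was not tested.

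Cx3cr1, the fractalkine receptor that lets microglia and other macrophages sense neurons and vessels (ENSMUSG00000052336, chromosome 9, 119901616 to 120069879, minus strand), was at 41.4, 18.4, 29.9, 25.7 and 19.3 CPM in NR mice 1 to 5. Non-treated mice 1 to 5 had 23.0, 23.5, 20.9, 28.2 and 23.4 CPM. NR mice 1 and 3 were above and NR mice 2 and 5 below the whole non-treated range, and the log2 fold change was 0.18 (SE 0.20, edgeR adjusted p = 0.777). Adgre1 encodes F4/80, the surface receptor used to stain mouse macrophages (ENSMUSG00000004730, chromosome 17, 57358691 to 57483527, plus strand). Its levels were 23.1, 6.62, 12.7, 10.3 and 8.97 CPM with NR and 8.29, 12.3, 11.1, 11.5 and 6.92 CPM without. Apart from NR mouse 1, the NR-treated values lay close to or within the non-treated range, and the log2 fold change of 0.30 (SE 0.31, edgeR adjusted p = 0.758) became -0.048 without that mouse.

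Mrc1 encodes the mannose receptor CD206, a scavenger receptor of resident and perivascular macrophages (ENSMUSG00000026712, chromosome 2, 14229392 to 14332057, plus strand). NR mice 1 to 5 had 36.5, 16.1, 32.2, 25.6 and 28.6 CPM and non-treated mice 26.0, 28.9, 18.8, 24.1 and 24.6 CPM. The groups overlapped, with a log2 fold change of 0.18 (SE 0.19, edgeR adjusted p = 0.763). Cd163, the haemoglobin scavenger receptor (ENSMUSG00000008845, chromosome 6, 124304656 to 124330527, plus strand), was the exception to the ranking of the mice. It was highest in NR mouse 5, with 5.93, 4.07, 4.63, 5.98 and 7.81 CPM in NR mice 1 to 5 and 6.31, 3.68, 3.89, 4.98 and 5.85 CPM in non-treated mice (log2 fold change 0.20, SE 0.21, edgeR adjusted p = 0.764). Lyve1 encodes a hyaluronan receptor of lymphatic endothelium and of a subset of perivascular macrophages (ENSMUSG00000030787, chromosome 7, 110850607 to 110863239, minus strand). Its levels were 4.82, 2.595, 3.72, 3.19 and 3.65 CPM with NR and 2.48, 3.14, 2.02, 3.17 and 3.11 CPM without, so 4 of the 5 NR-treated mice exceeded every non-treated mouse. Lyve1 had the smallest p of the 10 genes (log2 fold change 0.37, SE 0.20, edgeR adjusted p = 0.569, exact two-sided permutation p = 0.119, n = 5 and 5). Lymphatic endothelium genes other than Lyve1 had no call in either direction among 5 tested, and their summed level was 101 to 118 CPM with NR and 95.3 to 119 CPM without.

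Trem2 encodes a lipid-sensing receptor of macrophages, microglia and osteoclasts (ENSMUSG00000023992, chromosome 17, 48346401 to 48354147, plus strand), and Tyrobp encodes DAP12, the adaptor through which it signals (ENSMUSG00000030579, chromosome 7, 30413760 to 30417585, plus strand). Trem2 was at 46.3, 11.3, 16.3, 15.4 and 16.4 CPM in NR mice 1 to 5 and at 16.9, 23.0, 13.9, 20.8 and 17.3 CPM in non-treated mice. Only NR mouse 1 was above the non-treated median. The log2 fold change was 0.20 (SE 0.34, edgeR adjusted p = 0.859) and turned to -0.30 (SE 0.16, adjusted p = 0.744) when NR mouse 1 was left out. Tyrobp was at 73.0, 23.0, 52.5, 46.1 and 58.3 CPM in the same NR-treated mice and at 39.3, 50.5, 30.6, 39.3 and 37.0 CPM in the non-treated mice. NR mice 1, 3 and 5 exceeded every non-treated mouse, NR mouse 2 lay below all, and the log2 fold change was 0.36 (SE 0.25, edgeR adjusted p = 0.656).

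Cd68, a lysosomal glycoprotein of phagocytes (ENSMUSG00000018774, chromosome 11, 69664213 to 69666153, minus strand), was at 59.1, 17.8, 29.3, 25.2 and 31.2 CPM in NR mice 1 to 5 and at 29.6, 35.9, 17.2, 25.4 and 22.4 CPM in non-treated mice. Its log2 fold change of 0.32 (SE 0.29, edgeR adjusted p = 0.734) was -0.0042 without NR mouse 1. Aif1 encodes IBA1, a calcium-binding protein that bundles actin (ENSMUSG00000024397, chromosome 17, 35170991 to 35176068, minus strand). Its levels were 10.5, 3.58, 7.53, 5.33 and 5.61 CPM with NR and 5.06, 7.54, 6.47, 6.26 and 5.34 CPM without. It had the smallest fold change of the 10 genes (log2 0.08, SE 0.25, edgeR adjusted p = 0.928).

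**Figure D2:**
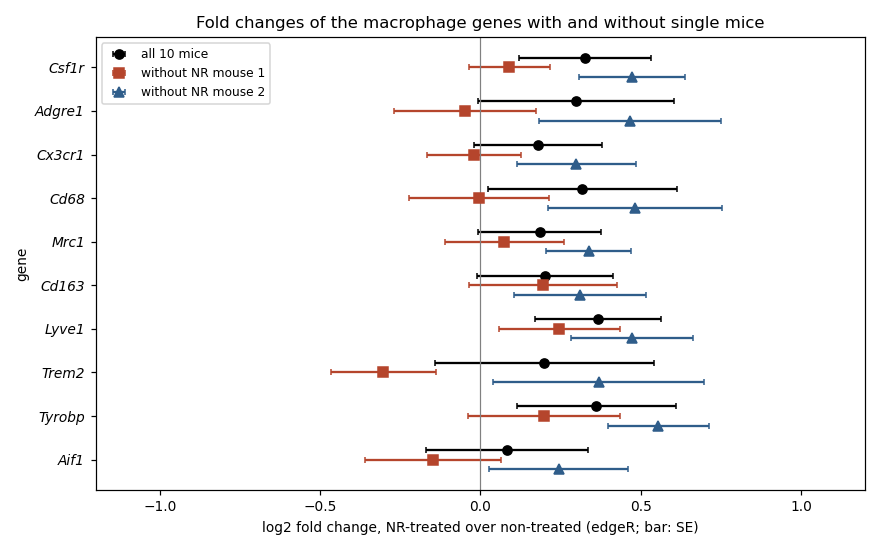
Log2 fold change (NR-treated over non-treated, bars are SE) of the 10 genes from edgeR with all 10 mice (black circles), without NR mouse 1 (red squares) and without NR mouse 2 (blue triangles). Without NR mouse 1, 5 genes lie below 0, and without NR mouse 2 all lie above 0.

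The comparison turned on these 2 mice. Without NR mouse 1 the median log2 fold change of the 10 genes was 0.04, with 5 genes higher, 5 lower and 0 called. Of those above 0, Tyrobp was then at 0.20 (SE 0.24), Csf1r at 0.0904 (SE 0.13), Mrc1 at 0.0751 (SE 0.19) and Lyve1 at 0.25 (SE 0.19). Without NR mouse 2 it was 0.42, and 4 passed without adjustment at the 0.05 level, all higher in NR-treated mice: Tyrobp (log2 0.56, SE 0.16), Csf1r (0.47, SE 0.17), Mrc1 (0.34, SE 0.13) and Lyve1 (0.47, SE 0.19). In that fit 7.61% of all tested genes were called higher, and the smallest adjusted p of the 10 genes was 0.228. Csf1r and Lyve1 were then the 2 of 10 genes with every NR-treated mouse above every non-treated mouse, against 2.42% of all tested genes. Both margins were small, with NR mouse 4 and non-treated mouse 4 at 80.3 and 79.9 CPM for Csf1r and 3.19 and 3.17 CPM for Lyve1. NR mouse 2 was the lowest NR-treated mouse in 10 of the 10 genes, so leaving it out could only move them toward such a separation. With all mice included this count was 0 of 10 above (0.769% of tested genes) and 0 of 10 below (0.878%). Leaving out both mice gave 2 calls, Csf1r (0.22, SE 0.07) and Tyrobp (0.42, SE 0.15), where 5.43% of all tested genes were called higher, while Trem2 was at -0.19 (SE 0.16). The fit without both mice was chosen after the data were seen.

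The SD of CPM was larger in NR-treated than in non-treated mice for 10 of 10 macrophage genes, against 39.1% of all tested genes. It was larger for 8 of 10 (37.1%) without NR mouse 1, and for 4 of 10 (30.9%) without NR mice 1 and 2. These 2 mice were picked as the extremes of the macrophage genes, so leaving them out favours a smaller SD there. The shares of all tested genes involve no such choice. Most of the 10 macrophage genes vary together between mice, so they are not independent counts. Summed over the 10 genes, the level was 280.2 ± 107 CPM (SD, n = 5) with NR and 230.3 ± 26.3 CPM without. NR mouse 1 reached 451 CPM and NR mouse 2 159 CPM, a 2.84-fold difference, whereas the highest and lowest non-treated mice (266 and 197 CPM) differed 1.35-fold. Differences from the non-treated mean, on the log2 scale, had a median of 0.86 over the 10 genes in NR mouse 1 and ran from 0.29 for Cd163 to 1.35 for Trem2. In NR mouse 2 the median was -0.53, with all 10 genes below the non-treated mean. NR mice 3, 4 and 5 had medians of 0.32, 0.10 and 0.27, beside -0.33 to 0.28 in the non-treated mice.

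**Figure D3:**
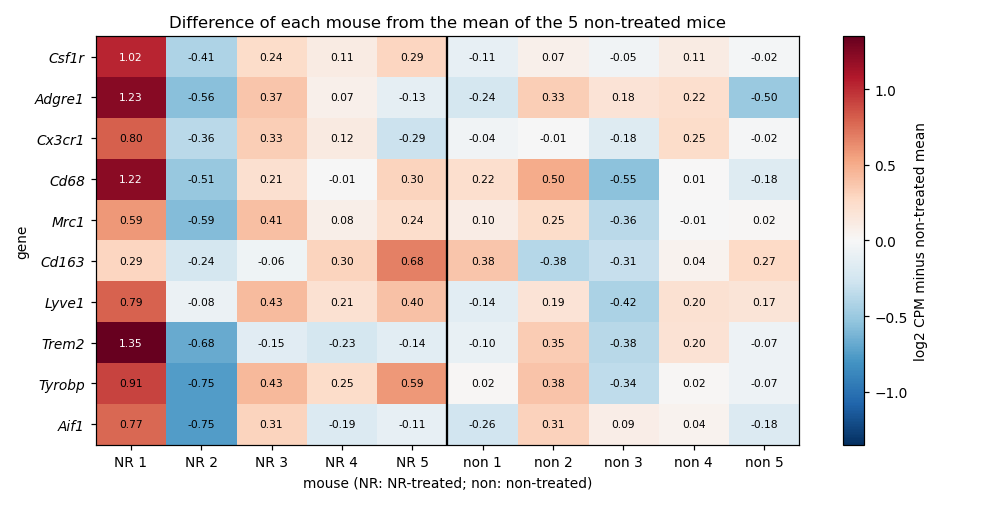
Log2 CPM of each gene (rows) in each mouse (columns) minus the mean of the 5 non-treated mice, with the value printed in each cell. The column of NR mouse 1 is positive throughout and that of NR mouse 2 negative throughout, from -0.75 to -0.08.

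Ratios between the genes ask whether the macrophage genes changed unequally within a mouse. Of 6 log2 ratios (differences of log2 CPM with a prior count of 2), none differed between the groups by an exact two-sided permutation test with 5 and 5 mice, whose smallest possible p is 0.00794. The ratio of Trem2 to Tyrobp, a receptor and its adaptor, was -0.66, -1.03, -1.68, -1.58 and -1.83 in NR mice 1 to 5 and -1.22, -1.13, -1.13, -0.91 and -1.09 in non-treated mice. NR mice 3, 4 and 5 were thus below every non-treated mouse, while NR mouse 1 was above all of them. The difference of the means was -0.26 (exact permutation p = 0.262, adjusted over the 6 ratios 0.702). The ratio of Lyve1 to Mrc1 was -2.90 ± 0.18 (SD, n = 5) with NR and -3.10 ± 0.18 without (exact permutation p = 0.127, adjusted 0.702). Differences for Cx3cr1 to Csf1r (-0.13), Mrc1 to Csf1r (-0.11), Cd163 to Mrc1 (0.05) and Cd68 to Csf1r (-0.01) had exact permutation p between 0.397 and 0.952. Non-treated mouse 2 had the lowest Cd163 to Mrc1 ratio, at -2.94.

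Over the 10 mice, 5 of 6 pairs of macrophage genes correlated in log2 CPM at an adjusted p of 0.05 (permutation test with 100000 resamples, adjusted over the 6 pairs). Leaving out NR mouse 1 ended all 5 calls (r from 0.52 to 0.74, exact permutation test over 9 mice, adjusted p from 0.126 to 0.181), and leaving out NR mouse 2 ended all but that of Mrc1 and Lyve1 (adjusted p = 0.0544 for the other 4). Csf1r and Adgre1 had r = 0.87 (p = 0.00368, adjusted 0.0141) and rho = 0.67 (p = 0.0384, adjusted 0.111), and r was 0.37 without NR mice 1 and 2, the mice farthest from the median of Csf1r. Csf1r and Cx3cr1 had r = 0.83 (p = 0.00718, adjusted 0.0144) and rho = 0.64 (p = 0.0553, adjusted 0.111), with r = 0.17 without the same mice. Trem2 and Tyrobp had r = 0.76 (p = 0.0117, adjusted 0.0175) and rho = 0.53 (p = 0.124, adjusted 0.149), with r = 0.29 without them. In these 3 pairs r was lower without NR mice 1 and 2. Leaving out the extremes of a gene narrows its range and favours a lower r. The fall therefore cannot show whether the other mice lack the relation. Mrc1 and Lyve1 had r = 0.82 (p = 0.00471, adjusted 0.0141) and r = 0.84 without NR mice 1 and 2, with rho = 0.73 (p = 0.0200, adjusted 0.111). Cd68 and Aif1 had r = 0.76 (p = 0.0157, adjusted 0.0188) and rho = 0.53 (p = 0.121, adjusted 0.149), and r = 0.80 without NR mouse 1 and non-treated mouse 3. For Mrc1 and Cd163, r was 0.43 (p = 0.214, adjusted 0.214), rho was 0.26 (p = 0.469, adjusted 0.469), and r without NR mice 1 and 2 was 0.24. No Spearman coefficient passed the adjusted threshold.

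Genes outside the list with the most similar pattern were ranked by Pearson's r over the 10 mice with the mean of the 10 standardized macrophage genes. This is a description, in which NR mice 1 and 2 are the extremes. The 10 most alike were Fcgr3 (r = 0.99, an Fc receptor), Tnfrsf1b (0.98, a TNF receptor), Sirpa (0.97, the inhibitory receptor for CD47), C5ar1 (0.97, the complement C5a receptor), Tifab (0.97), Cd300lb (0.97, a receptor that pairs with DAP12), Ptpn6 (0.96, the phosphatase SHP-1), Nckap1l (0.96, a haematopoietic actin regulator), Abcc3 (0.96, a transporter) and Man2b1 (0.96, a lysosomal mannosidase). NR mouse 1 was the highest and NR mouse 2 the lowest mouse in 10 of the 10, which the way they were picked favours. Fcgr3 was at 25.4 CPM in NR mouse 1, 8.50 CPM in NR mouse 2 and 10.8 to 15.6 CPM in non-treated mice. The 10 macrophage genes had r with the same mean, of which each is a part, from 0.39 for Cd163 to 0.97 for Csf1r.

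Promoters were read for the macrophage genes as context for the shared pattern, from RefSeq (GRCm38.p6), in windows of 250 bases before to 50 after each start. A window was present for 6 of the 10 genes. PU.1, encoded by Spi1, is the factor that defines the myeloid lineage, and the core letters of its site, GAGGAA, were searched on both strands. They were found in 4 of these 6 windows (Mrc1, Cd68, Aif1, Trem2) and in 28.3% of all 32851 windows. The longer GAGGAAGT, which contains it, was in 0 of 6 (3.20% of all windows), TATAAA in 0 of 6 (13.6%) and CACGTG in 0 of 6 (7.15%). A match is a stretch of letters and not a measured site. The stretches before Trem2, Cd68 and Mrc1 that hold the match upstream of the gene are shown 5′ to 3′ on the strand of the gene, with GAGGAA or its reverse complement TTCCTC in capitals. For Mrc1 the stretch stops where the count files place the gene's first base.
Trem2, chr17:48346151-48346400, plus strand, match starting at -40 from the RefSeq start: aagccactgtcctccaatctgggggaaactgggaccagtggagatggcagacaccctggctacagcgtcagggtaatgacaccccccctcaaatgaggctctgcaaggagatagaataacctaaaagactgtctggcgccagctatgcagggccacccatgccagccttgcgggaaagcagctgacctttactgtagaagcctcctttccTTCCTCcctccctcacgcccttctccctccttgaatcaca
Cd68, chr11:69666171-69666420, minus strand, match starting at -225: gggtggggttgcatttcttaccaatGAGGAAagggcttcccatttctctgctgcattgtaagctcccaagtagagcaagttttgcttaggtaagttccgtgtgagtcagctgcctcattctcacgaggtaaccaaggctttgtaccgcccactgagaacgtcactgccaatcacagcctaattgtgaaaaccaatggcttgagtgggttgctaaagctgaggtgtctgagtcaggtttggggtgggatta
Mrc1, chr2:14229164-14229391, plus strand, matches starting at -180, -167 and -35: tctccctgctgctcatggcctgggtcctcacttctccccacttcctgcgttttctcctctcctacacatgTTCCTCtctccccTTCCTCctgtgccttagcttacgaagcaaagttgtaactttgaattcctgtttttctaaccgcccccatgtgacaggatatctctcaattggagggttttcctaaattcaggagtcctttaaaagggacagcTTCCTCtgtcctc

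Ligands of the macrophage receptors were taken as a list of their own. Csf1, which feeds the CSF1 receptor, was at 67.5, 40.6, 52.4, 53.1 and 53.6 CPM in NR mice 1 to 5 and at 43.5, 49.9, 46.0, 39.5 and 41.7 CPM in non-treated mice. It was the 1 of 6 tested ligand genes called without adjustment (log2 fold change 0.27, SE 0.12, edgeR adjusted p = 0.494), where 4.83% of all tested genes were called higher. The call was lost without NR mouse 1, 3, 4 or 5 or non-treated mouse 1, 4 or 5 (log2 0.18 to 0.29). NR mouse 1 was again the highest and NR mouse 2, at 40.6 CPM, lay within the non-treated range. Il34, the second ligand of that receptor, was at 25.9 to 32.5 CPM with NR and 23.4 to 29.5 CPM without (log2 0.10, edgeR adjusted p = 0.733). Cx3cl1, fractalkine, was at 53.0 to 69.9 CPM with NR and 58.4 to 74.5 CPM without (log2 -0.11, edgeR adjusted p = 0.694). Apoe, a lipid carrier bound by TREM2 and the most abundant of the list per kilobase, had 4337 CPM in NR mouse 1 and 2452 to 3207 CPM in the other 9 mice.

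Further macrophage lists gave few calls by edgeR at the unadjusted 0.05 level and 0 after adjustment. DESeq2 called 1 of their genes after adjustment, Gpnmb, beside 102 of 19633 genes in all. Without adjustment edgeR called 4.83% of all tested genes higher and 4.88% lower, and 47.1% had a fold change above 0. Of 22 other general macrophage genes tested, such as complement C1q, Fc receptors and integrins, 19 had a fold change above 0 and 0 were called (median log2 0.23), and NR mouse 1 was the highest mouse in 20 of the 23 listed and NR mouse 2 the lowest in 19. Lyz2, lysozyme, the most abundant of them, had a log2 fold change of -0.85 (SE 0.75, edgeR adjusted p = 0.724), which was 0.74 (SE 0.34, adjusted p = 0.479) without non-treated mouse 2. Of 10 transcription factors, 0 were called (median log2 0.01). Spi1, named here after its values were seen, was at 51.5, 14.4, 39.9, 35.2 and 39.9 CPM with NR and 29.0, 31.2, 17.0, 24.4 and 25.9 CPM without (log2 0.50, edgeR adjusted p = 0.582). Without NR mouse 2, Spi1 passed an unadjusted p of 0.05 (log2 0.72, SE 0.17, edgeR adjusted p = 0.216), as it did without NR mice 1 and 2 (log2 0.60, SE 0.17, adjusted p = 0.441). Maf, the most abundant factor per kilobase, had a log2 fold change of -0.10 (edgeR adjusted p = 0.682).

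Among 10 genes that carry the TREM2 and TYROBP signal, 1 was called (median log2 0.08). Pik3cd, a PI3-kinase subunit of blood cells, was at 146, 133, 169, 143 and 155 CPM with NR and 99.98, 120, 70.0, 128 and 135 CPM without (log2 0.43, SE 0.15, edgeR adjusted p = 0.458). NR mouse 2 was the only NR-treated mouse within the non-treated range. Grb2, an adaptor and the most abundant of the list, had a log2 fold change of 0.05 (edgeR adjusted p = 0.765). Of 13 genes of resident and perivascular macrophages, 11 had a fold change above 0 and 1 was called (median log2 0.23). Cbr2, a carbonyl reductase, was at 370, 128, 176, 287 and 183 CPM with NR and 108, 148, 147, 94.5 and 50.1 CPM without (log2 1.06, SE 0.33, edgeR adjusted p = 0.426). NR mice 1, 3, 4 and 5 exceeded the highest non-treated mouse. Which cells of the tissue made Cbr2 was not tested.

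Of 12 lipid-associated macrophage genes, edgeR called 1 higher and 1 lower (median log2 0.15), beside 4.83% and 4.88% of all tested genes. Gpnmb, a membrane glycoprotein of lipid-laden macrophages that pigment cells also make, was at 117, 129, 91.1, 127 and 102 CPM with NR and at 170, 173, 177, 254 and 193 CPM without. Every NR-treated mouse was below every non-treated mouse, as in 0.878% of all tested genes (log2 -0.77, SE 0.13, edgeR adjusted p = 0.224). DESeq2 called Gpnmb after adjustment (log2 -0.77, SE 0.14, adjusted p = 0.000108), so this call depends on the tool. NR mouse 1, the highest mouse in 9 of the 10 macrophage genes, was not high in Gpnmb. Lpl, lipoprotein lipase, which fat cells make as well, was at 69.9, 60.4, 42.6, 29.8 and 29.5 CPM with NR and 37.5, 32.2, 16.2, 18.3 and 12.5 CPM without (log2 0.99, SE 0.34, edgeR adjusted p = 0.445). Beside it, 4 of 6 tested adipocyte genes (Cidec, Plin1, Cfd and Retn) were called higher and 0 lower by edgeR, against 4.83% and 4.88% of all tested genes. DESeq2 called the adipocyte genes Cidec, Plin1, Cfd and Lep after adjustment, beside 102 of 19633 genes in all. The edgeR filter had left out Lep. The adipocyte list had a summed level of 63.8 to 120 CPM with NR and 38.3 to 60.3 CPM without, and its part in the Lpl result was not tested. Without NR mice 1 and 2, the values of Lpl gave a log2 fold change of 0.55 (SE 0.34, adjusted p = 0.669), no longer called. Spp1, osteopontin, also a bone matrix protein, was the most abundant of the list (log2 -0.17, edgeR adjusted p = 0.676).

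Microglia, the macrophages of the brain, were listed as a related cell type. Of 9 microglia genes, Siglech was called lower and Olfml3 higher (median log2 0.05), beside 4.88% and 4.83% of all tested genes. Siglech, a lectin of microglia and plasmacytoid dendritic cells, was at 4.67, 4.34, 5.62, 3.49 and 4.92 CPM with NR and 7.55, 6.11, 6.55, 5.82 and 5.71 CPM without (log2 -0.46, SE 0.15, edgeR adjusted p = 0.434). Every NR-treated mouse was below every non-treated mouse, as in 0.878% of all tested genes. Olfml3 had a log2 fold change of 0.30 (SE 0.11, edgeR adjusted p = 0.472), and the call was lost without non-treated mouse 5 (log2 0.26, SE 0.12). Tmem119, the most abundant of the list, was at 24.0 to 39.5 CPM with NR and 29.5 to 40.9 CPM without (log2 -0.21, SE 0.13, edgeR adjusted p = 0.627), and it passed an unadjusted p of 0.05 without NR mouse 1 (log2 -0.32, SE 0.11). The summed level of the 9 genes, 123 to 160 CPM with NR and 126 to 149 CPM without, spread less between mice than the 10 macrophage genes. Its largest parts were Olfml3, Tmem119 and Sall1, with non-treated means of 64.43, 35.06 and 17.15 CPM. P2ry12, P2ry13, Gpr34 and Fcrls had means of 2.742 to 4.141 CPM. The sum therefore mostly follows a few genes, and which cells made them was not tested. Of 8 monocyte genes and 8 dendritic cell genes, 0 and 0 were called (median log2 0.19 and 0.02).

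Osteoclasts share Csf1r, Trem2 and Tyrobp with macrophages, and neutrophil precursors fill the marrow of the surrounding bone. Of 9 osteoclast genes tested, 8 had a fold change above 0 and 5 were called higher without adjustment (median log2 0.86). Of all tested genes, 47.1% had a fold change above 0 and 4.83% were called higher. Ctsk, the collagen-degrading cathepsin K, was at 128, 50.1, 77.4, 87.4 and 117 CPM with NR and 77.2, 54.0, 32.3, 31.2 and 44.0 CPM without (log2 0.94, SE 0.29, edgeR adjusted p = 0.423). Acp5, the tartrate-resistant phosphatase, was at 171, 57.9, 97.2, 109 and 175 CPM with NR and 125, 64.5, 21.7, 28.4 and 44.95 CPM without (log2 1.102, SE 0.46, edgeR adjusted p = 0.488). Mmp9, a matrix protease (log2 0.86, edgeR adjusted p = 0.476), and Dcstamp, a fusion protein (log2 1.153, edgeR adjusted p = 0.472), were also called. Oscar, an osteoclast receptor, fell under the edgeR filter, with 3 to 29 reads per mouse, and was named after its values were seen. It was at 1.35, 0.268, 1.255, 1.22 and 1.45 CPM with NR and 0.139 to 0.309 CPM without, above every non-treated mouse in 4 of the 5 NR-treated mice. DESeq2 called it after adjustment (log2 2.19, adjusted p = 0.00588), beside 102 of 19633 genes in all. The edgeR fit without the filter did not call it (log2 2.17, SE 0.43, adjusted p = 0.324). Among the tested genes, the call count was 1 without NR mouse 1, NR mouse 5 or non-treated mouse 5, and 2 without non-treated mouse 3 or 4. The level of the 11 listed genes summed to 232 to 628 CPM with NR and 149 to 530 CPM without, with Calcr, a defining marker, at 0 in NR mouse 2 and non-treated mice 2 and 3. NR mouse 2 was the lowest NR-treated mouse in 11 of the 11 osteoclast genes and in 10 of the 10 macrophage genes, against 26.3% of all tested genes. NR mice 1 and 5 had near-equal osteoclast sums (626 and 628 CPM) and unequal macrophage sums (451 and 271 CPM).

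Of 10 genes of neutrophils and myeloid progenitors, 9 had a fold change above 0 (47.1% of all tested genes). Only 1 was called higher (Retnlg, log2 0.75, edgeR adjusted p = 0.499), beside 4.83% of all tested genes. The Retnlg call was lost without NR mouse 1, 3, 4 or 5 or non-treated mouse 3, 4 or 5 (log2 0.58 to 0.75). Their sum was 4802, 1433, 4731, 4789 and 4102 CPM in NR mice 1 to 5 and 3607, 5763, 1447, 2334 and 2947 CPM in non-treated mice, where Ltf alone gave 2488 CPM of the sum of mouse 2. NR mouse 2, the lowest mouse in the macrophage genes, was thus also lowest in this list, next to non-treated mouse 3, while NR mouse 1 was level with NR mice 3 and 4. S100a9, the most abundant, had a log2 fold change of 0.46 (SE 0.34, edgeR adjusted p = 0.672), and without NR mouse 2 it passed an unadjusted p of 0.05 (log2 0.68, SE 0.24). Genes of supporting cells, tectorial membrane, stria and fibrocytes ran the other way: 8 of 10 were called lower and 0 higher (median log2 -0.68), against 4.88% and 4.83% of all tested genes. Their sums were 4156 to 6209 CPM with NR and 4787 to 8273 CPM without. NR mouse 1 had the lowest sum of the 10 mice and NR mouse 2 the highest of the NR-treated. Of 7 skeletal muscle genes, 6 were called higher by edgeR (4.83% of all tested genes). DESeq2 called Acta1 after adjustment, beside 102 of 19633 genes in all. The 7 genes summed to 11.2, 26.2, 850, 75.2 and 634 CPM in NR mice 1 to 5 and 8.96 to 73.4 CPM in non-treated mice, and were lowest of the NR-treated in NR mouse 1. The part of these cell types in the macrophage values was not tested.

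**Figure D4:**
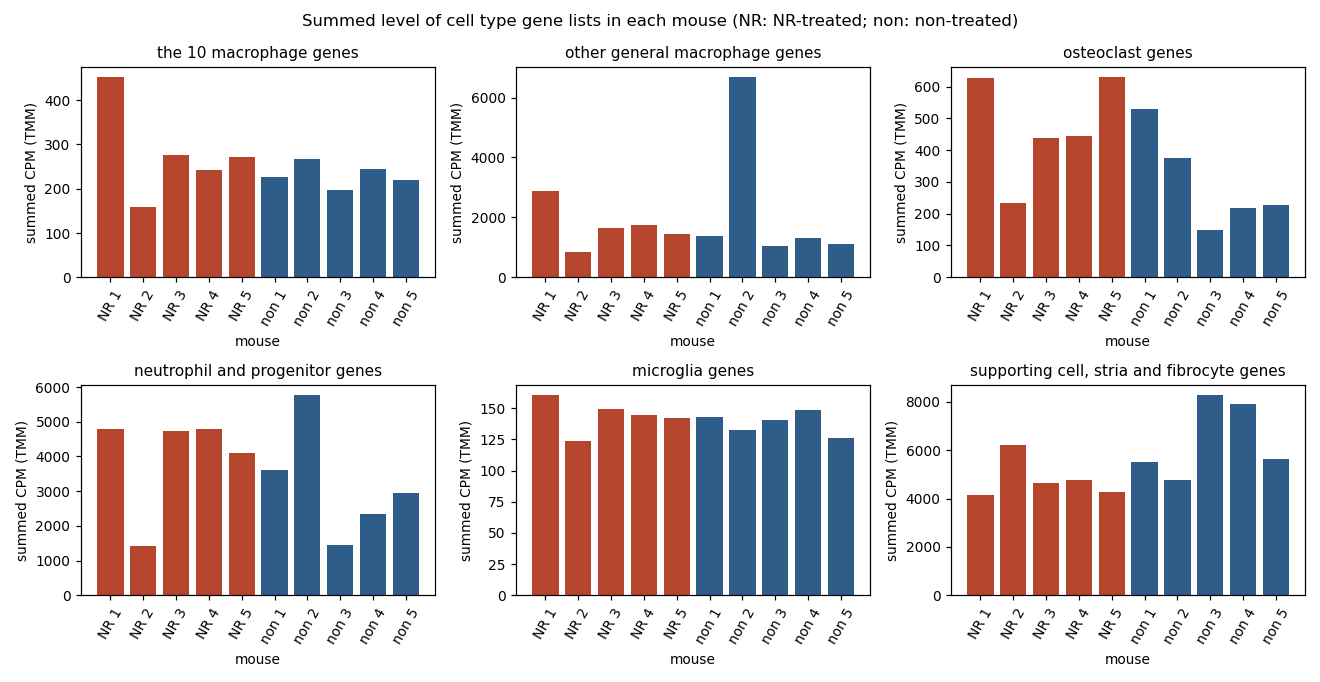
Summed CPM (linear axes from 0) in each mouse for the 10 macrophage genes and 5 other gene lists, NR-treated in red and non-treated in blue. NR mouse 2 is the lowest mouse in the macrophage and neutrophil panels. In the osteoclast panel it is the lowest NR-treated mouse (232 CPM), within the non-treated range (149 to 530 CPM). The tall bar of non-treated mouse 2 among the general macrophage genes (6672 CPM) is mostly Lyz2 (5740 CPM).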

How the data were processed

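The data are RNA-seq counts of the cochlea of 5 NR-treated and 5 non-treated mtKeima mice. The authors deposited raw counts per gene for each mouse, made with STAR (2.6.1d, mm10) and featureCounts (1.5.0, default mode, no strand), with no normalization. Counts were scaled here by TMM and the 18329 genes passing filterByExpr were tested with edgeR 4.0.16 (quasi-likelihood, R 4.3.3), with Benjamini-Hochberg adjustment over all of them. CPM are TMM-scaled, and log2 CPM used a prior count of 2. Ratios were tested with all 252 labelings of the 10 mice. DESeq2 1.42.0 was an alternative. Scripts were tested on simulated data. The genes and lists were chosen with earlier results of these data known. Besides the 10 genes and 3 ligands, the text names the gene most abundant per kilobase in each myeloid list and up to 4 genes per list at an unadjusted p of 0.05, and the 10 genes most alike. Planned correlations of the macrophage mean with other lists were replaced by values for each mouse. Nothing says whether RNA of a mouse came from 1 or 2 ears, and the labels name no batch. No pair of libraries agreed within sampling noise.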

Additional observations from a re-analysis of the deposited data

Results flagged for a closer look

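Trem2 in NR mouse 1, at 46.3 CPM, stood apart from the other 4 NR-treated mice (11.3 to 16.4 CPM), with a gap of 0.854 of the range of its group against a critical value of 0.71 in Dixon's test. The log2 ratio of Cd163 to Mrc1 in non-treated mouse 2, at -2.94, stood apart in the same way, with a gap of 0.756 of the range. Of 40 groups of 5 values examined for the macrophage genes, their ligands, their sum and the 6 ratios, these were the 2 that passed, and chance alone gives about 1 in 20.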

How the results depend on the processing

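Only 5 mice per group limit the precision. DESeq2 called 102 of 19633 genes at an adjusted p of 0.05, Gpnmb (adjusted p = 0.000108) among them, where edgeR called 0. Leaving out single mice gave 0 to 1 adjusted and 1153 to 2440 unadjusted edgeR calls. Of the unadjusted calls, 0 to 4 were macrophage genes and 1 to 6 osteoclast genes. Macrophage genes without overlap numbered 0 to 2. Without NR mouse 2 alone, 4 of the 10 genes were called, and without NR mice 1 and 2 (chosen after seeing the data) 2 were, with Trem2 at -0.19. Without NR mouse 1, fold changes turned for Trem2 (-0.30), Aif1 (-0.15), Adgre1 (-0.048), Cx3cr1 (-0.0185) and Cd68 (-0.0042). Over single mice left out, Csf1r ran from 0.0904 (NR mouse 1) to 0.47, Mrc1 from 0.0751 (NR mouse 1) to 0.34, Tyrobp from 0.20 (NR mouse 1) to 0.56, Cd163 from 0.0734 (NR mouse 5) to 0.31, and Lyve1 from 0.25 (NR mouse 1) to 0.47, while Trem2 ran up to 0.37, Aif1 to 0.24, Adgre1 to 0.47, Cx3cr1 to 0.30 and Cd68 to 0.48, Lyz2 from -1.13 to 0.74 and Chil3, a monocyte gene, from -0.0306 to 0.39, and the ratio differences of Cd163 to Mrc1 from -0.11 to 0.18 and of Cd68 to Csf1r from -0.14 to 0.10. Pearson's r ran from 0.64 to 0.84 for Trem2 and Tyrobp, 0.64 to 0.92 for Csf1r and Adgre1, 0.52 to 0.96 for Csf1r and Cx3cr1, 0.74 to 0.90 for Mrc1 and Lyve1 and 0.53 to 0.90 for Cd68 and Aif1, with the adjusted p above 0.05 for all 5 without NR mouse 1 and for 4 without NR mouse 2. DESeq2 size factors, robust dispersion, no filter, a prior count of 0.5, total counts and group centring changed no direction or call of these genes, ratios or pairs; the cause of the changes was not tested. Replicate numbers did not pair the mice (correlations of deviations -0.22 to 0.17). With the number as a replicate block, edgeR called 0 genes adjusted, 1655 unadjusted (1780 without it) and 0 of the 10 genes, Lyz2 turned to 0.23, and the calls of Csf1 (log2 0.26) and Retnlg (log2 0.78) were lost; the ratio of Lyve1 to Mrc1 had an adjusted exact p of 0.875.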

Other observations

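Other cell types listed beside the macrophages gave these counts at an unadjusted p of 0.05 (edgeR, none at an adjusted p of 0.05). Of all tested genes, 4.83% were called higher and 4.88% lower, and 47.1% had a fold change above 0. All 5 tested mast cell genes had a fold change above 0 and 1 was called, Cma1, the chymase (median log2 0.70), with sums of 6.26 to 19.6 CPM with NR and 7.28 to 11.6 CPM without. Among 6 blood endothelium genes, Pecam1 and Tie1 were called higher (median log2 0.19). Of 8 B lymphocyte genes 7 had a fold change below 0 (median log2 -0.31), and of 7 T and NK lymphocyte genes 6 were above 0 (median log2 0.33), with 0 called in either list. All 5 erythroid genes (median log2 -0.21) and all 7 hair cell genes (median log2 -0.41) were below 0 with 0 called, and 5 central nervous system glia genes had 0 calls (median log2 -0.02). Among 6 Schwann cell genes Cdh19 and Sox10 were called lower (median log2 0.03).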
